A study of Mus musculus with 2 samples.

Results

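The motile cilium axoneme genes were the 71 protein-coding genes, of 22028 annotated, whose symbol began with Cfap, Dnah, Dnaaf, Rsph, Tekt or Drc followed by a number, or was Foxj1, Mcidas, Tmem212, Ccdc153 or Dynlrb2. They were chosen by a rule on symbols, which was selected on the ratio of replicate 2 to replicate 1 in these same data, because ependymal genes were lower in replicate 2. The ratios between the libraries given here are therefore descriptions, carry no test and support nothing by themselves. The rule also named Dnai1 and Dnai2, symbols that the annotation used does not contain. The same dynein intermediate chains are listed there as Dnaic1 and Dnaic2, and their values stand apart from the members.

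The series held 1 group of 2 libraries of total RNA, called biological replicate 2 and biological replicate 1. The source was hippocampus of 14-day-old female mice of the B6CASTF1/J strain, an F1 cross of C57BL/6J and CAST/EiJ. The labels call the tissue a layer of the hippocampus without saying which layer. Each library listed 3 females, with different mouse numbers in each, both libraries carried 1 donor identifier, and 300 ng of RNA with synthetic ERCC spike-ins entered each. No treatment, genotype contrast or second tissue was available, so the comparisons below are between genes within the libraries and between the libraries. With 1 library on each side no difference has a replicate check, and no p-value is given.

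An axoneme is the microtubule skeleton of a cilium. In motile cilia, outer and inner rows of dynein arms on the microtubule doublets slide the doublets past each other, while radial spokes, the nexin-dynein regulatory complex and the central pair coordinate the stroke. In the brain such cilia sit in tufts on the ependymal cells that line the ventricles, where they move cerebrospinal fluid, and the transcription factor Foxj1, acting beside RFX factors, switches on their genes. Neurons and astrocytes carry a single primary cilium, which uses intraflagellar transport but lacks the dynein arms and spokes.

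RFX factors recognise sites built from the core GTTGCC, read as GGCAAC on the other strand, and the promoters of the members were searched for it on both strands. RefSeq promoter windows of GRCm38.p6, 250 bases before to 50 bases after a start site, were found for 58 of the 71 members, in 65 windows. The core was present in 26 of the 65 member windows, 40.0%, against 4111 of 32851 windows of all genes, 12.5%, and 2494 of 20150 windows of protein-coding genes, 12.4%. Counted by gene, 24 of 58 members (41.4%) had it, against 14.0% of 16522 protein-coding genes. The median GC content was 55.3% in the members' windows and 57.0% in those of coding genes. Among windows within the middle range of the members' GC content, from their lower to their upper quartile, 17 of 34 member windows (50%) and 13.7% of 6292 coding windows held the core.

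Below, 8 windows of 46 bases show the core, in capitals, with its flanks, 5′ to 3′ on the strand of the gene. They were chosen after their values were seen, to show members of different roles and levels. Cfap20, Cfap298, Drc1 and Cfap44 are among the more abundant members, Dynlrb2, Ccdc153 and Tekt1 had fewer than 3 TPM on average, and Dnah10 is a heavy chain at the low end.

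Cfap20, chr8:95434938-95434983, minus strand: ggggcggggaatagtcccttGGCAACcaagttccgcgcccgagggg
Cfap298, chr16:90934893-90934938, minus strand: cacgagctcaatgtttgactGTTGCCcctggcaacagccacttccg
Drc1, chr5:30281362-30281407, plus strand: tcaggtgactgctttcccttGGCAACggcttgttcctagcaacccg
Cfap44, chr16:44394760-44394805, plus strand: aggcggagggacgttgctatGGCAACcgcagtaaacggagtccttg
Ccdc153, chr9:44240505-44240550, plus strand: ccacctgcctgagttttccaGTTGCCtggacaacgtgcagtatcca
Tekt1, chr11:72361872-72361917, minus strand: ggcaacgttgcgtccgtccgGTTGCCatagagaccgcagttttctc
Dynlrb2, chr8:116504944-116504989, plus strand: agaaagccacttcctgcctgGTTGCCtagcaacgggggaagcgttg
Dnah10, chr5:124725045-124725090, plus strand: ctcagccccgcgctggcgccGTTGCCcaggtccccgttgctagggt

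The 34 distinct cores in member windows lay at a median of 55 bases before the start site, counted to the first base of the core. Of these, 19 lay within 100 bases before the start, 10 lay farther upstream and 5 lay after the start. The core read GTTGCC on the gene's strand in 15 cases and GGCAAC in 19. When only the last 150 bases of each window were searched, 20 of 65 member windows (30.8%) and 6.89% of all windows held it. A looser core, GTTNCC with any base at N, was in 72.3% of member windows and 45.3% of all windows. GTTNCC includes every GTTGCC match.

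Cfap298, a factor needed for dynein arm assembly, was the sole member with a GTTNCC core followed within 3 bases by GGNAAC. Its window held that pair at 2 places, and the pair occurred in 0.804% of all windows. Near forms were not counted, such as GTTGCC followed within 3 bases by AGCAAC in the Dynlrb2 window above. The search therefore does not show that other members lack a paired RFX site. The whole Cfap298 window, chr16:90934800-90935099 on the minus strand, is shown because it holds 4 cores, in capitals, as 2 pairs at 188 and 69 bases before the start site.

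Cfap298 promoter: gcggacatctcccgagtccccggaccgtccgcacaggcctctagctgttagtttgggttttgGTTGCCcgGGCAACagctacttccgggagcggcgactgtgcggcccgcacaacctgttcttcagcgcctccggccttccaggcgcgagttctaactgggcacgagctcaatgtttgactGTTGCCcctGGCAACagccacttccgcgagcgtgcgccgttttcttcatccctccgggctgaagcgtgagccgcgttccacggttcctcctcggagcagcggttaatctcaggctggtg

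The core was as frequent in several other lists of cilium and dynein genes as in the members. It was in 10 of 23 windows of other axoneme genes (43.5%), in 14 of 34 windows of intraflagellar transport and BBSome genes (41.2%) and in 4 of 9 windows of cytoplasmic dynein genes (44.4%). The ependymal markers outside the axoneme had it in 5 of 10 windows, the multicilia regulators in 5 of 14 and the choroid plexus markers in 3 of 7. It was in 2 of 4 neuron, 1 of 6 astrocyte, 0 of 9 meningeal and 0 of 8 sperm marker windows, so these small lists ranged from 0% to 50%. A match describes letters in a window and is not evidence of a bound site.

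**Figure D1:**
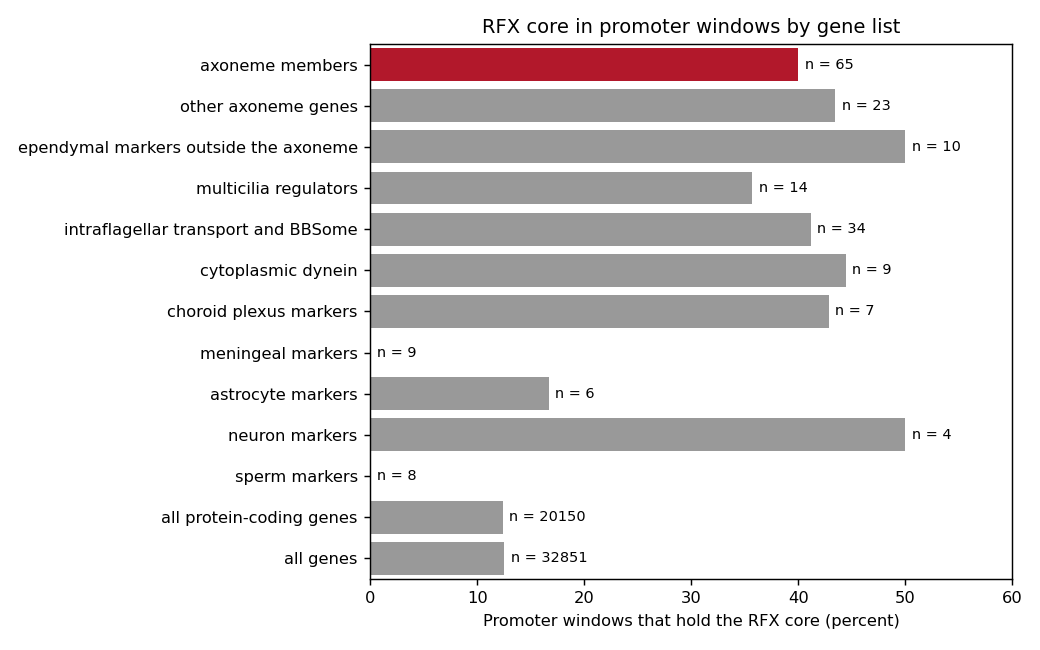
The bars give the percent of 300-base promoter windows that hold the core GTTGCC or its reverse complement, with the number of windows (n) beside each bar. The axoneme members stood at 40.0% of 65 windows, beside 12.4% for all protein-coding genes and 12.5% for all genes.

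Other motifs were searched in the same windows, also on both strands. TGTTTA, a forkhead-type motif, was in 13 of 65 member windows (20%), 11.3% of coding windows and 13.4% of all windows. Within the middle range of the members' GC content the shares were closer, 4 of 34 member windows (11.8%) and 9.82% of coding windows. The CCAAT box was in 35.4% of member windows and 37.4% of all windows. TATAA was in 6 member windows (9.23%), against 24.9% of all windows. Core matches were spread over the roles, with 11 of 27 windows of Cfap genes, 4 of 14 of heavy chains, 4 of 8 of tektins and 1 of 6 of radial spoke genes.

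Expression was measured from estimated reads per gene, with levels in TPM, which are relative to transcript length and to all transcripts of the library, and ratios between libraries from counts scaled with TMM factors. A gene was called detected at 1 TPM or more in both libraries. Of the 71 members, 30 (42.3%) were detected, beside 58.6% of all protein-coding genes. A further 14 reached 1 TPM in replicate 1 alone, Dnaaf2 did so in replicate 2 alone, and 26 were under 1 TPM in both. Nothing is read from this split, since the contrast between the libraries chose the members. The share of all protein-coding genes at 1 TPM in a single library is not given here. The median member stood at 0.760 TPM in replicate 2 and 1.53 TPM in replicate 1, beside 3.34 and 3.75 TPM for all protein-coding genes. Cfap97d1 was the 1 member with no count in either library. A count of 0 allows up to 3 counts, which at an effective length of 1 kb is 0.133 TPM in replicate 2 and 0.132 TPM in replicate 1.

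Just above the detection threshold stood Cfap97d2 with 1.06 TPM in replicate 2 and 1.19 TPM in replicate 1, Tekt1 with 1.05 and 2.19 TPM, and Tekt5 with 1.39 and 1.00 TPM. Just below it stood Dnaaf2 with 1.02 TPM in replicate 2 and 0.95 TPM in replicate 1, Dnah7b with 0.900 and 1.22 TPM, and Tekt2 with 0.86 and 0.95 TPM. At a threshold of 0.5 TPM in both libraries 46 members would count as detected.

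A few genes made up much of the members' summed TPM. Cfap36, Cfap20 and Cfap298 held 44.2% of it in replicate 2 and 35.9% in replicate 1, and with Rsph3a, Rsph3b and Rsph9 the share was 61.5% in replicate 2 and 52.3% in replicate 1. The sum over all members was 219 TPM in replicate 2 and 269 TPM in replicate 1, and without Cfap36, Cfap20 and Cfap298 it was 122 TPM in replicate 2 and 172 TPM in replicate 1.

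**Figure D2:**
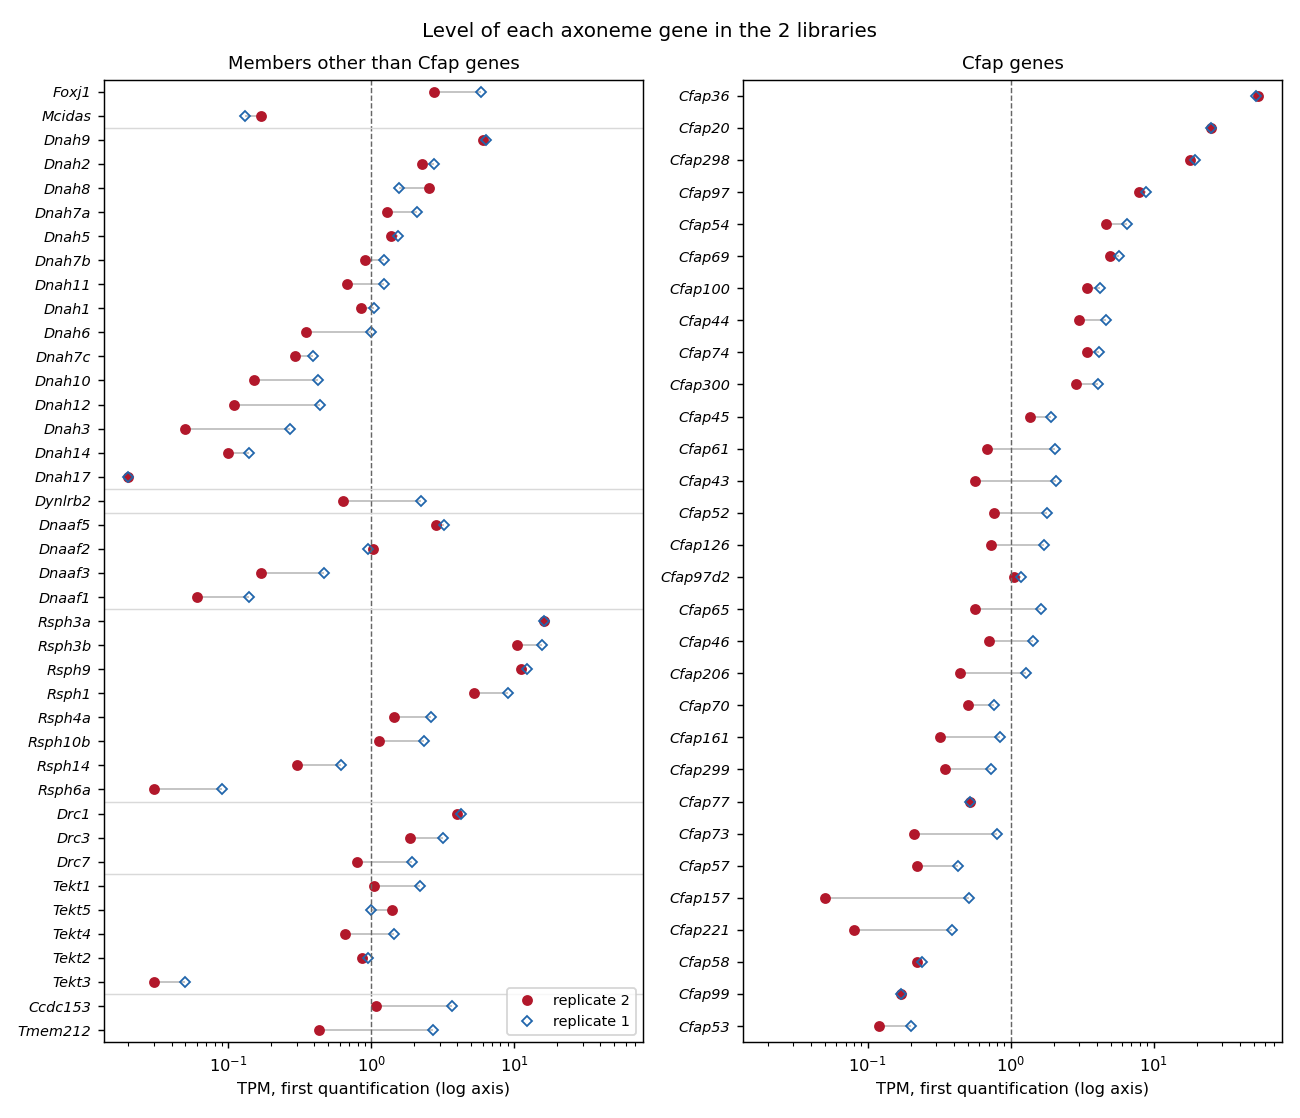
Each row is 1 member, by role (left) and for Cfap genes (right), with its TPM in replicate 2 (filled circle) and replicate 1 (open diamond) on a log axis. The dashed line is the detection threshold of 1 TPM, and Cfap97d1, at 0 in both libraries, is not drawn. Abundant members such as Cfap36 and Rsph3a nearly coincide in the 2 libraries, while many members near 1 TPM lie lower in replicate 2.

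For the ratio between the libraries, 51 members had at least 50 counts summed over both. Of these, 24 were at least 1.5-fold lower in replicate 2 than in replicate 1, 0 were at least 1.5-fold higher, and 27 passed neither bound. Over all 13813 protein-coding genes with that many counts, 3.24% were at least 1.5-fold lower and 1.31% at least 1.5-fold higher. Among coding genes of 50 to 500 summed counts, where most members fall, 10.2% were at least 1.5-fold lower, and 23 of the 40 members in that range were. Nothing is read from these shares, since this contrast chose the members. The members' median log2 ratio of replicate 2 over replicate 1 was -0.54, a ratio of 0.686, beside 0.01 over coding genes. The ratios lay below 0 for 43 members and above 0 for 8.

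The members' ratio differed with level, but the shares of all coding genes at the same TPM levels are not given here. Coding genes of 50 to 500 summed counts were also lower more often (10.2%) than all coding genes (3.24%). Whether the difference with level is particular to the members was not tested. Of the 11 members with a mean of at least 5 TPM, 1 (Rsph1) was at least 1.5-fold lower in replicate 2 and their median log2 ratio was -0.08. Of the 27 members between 1 and 5 TPM, 14 were lower and the median was -0.67. Of the 13 members under 1 TPM that had enough counts, 9 were lower and the median was -0.76. Across the 51 members Pearson's r between the log2 ratio and the log2 mean TPM was 0.44 and Spearman's rho was 0.42, as a description over genes that share both libraries. Another 20 members had fewer than 50 counts, of which 17 had fewer counts in replicate 2, 1 had more and 2 had equal counts.

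**Figure D3:**
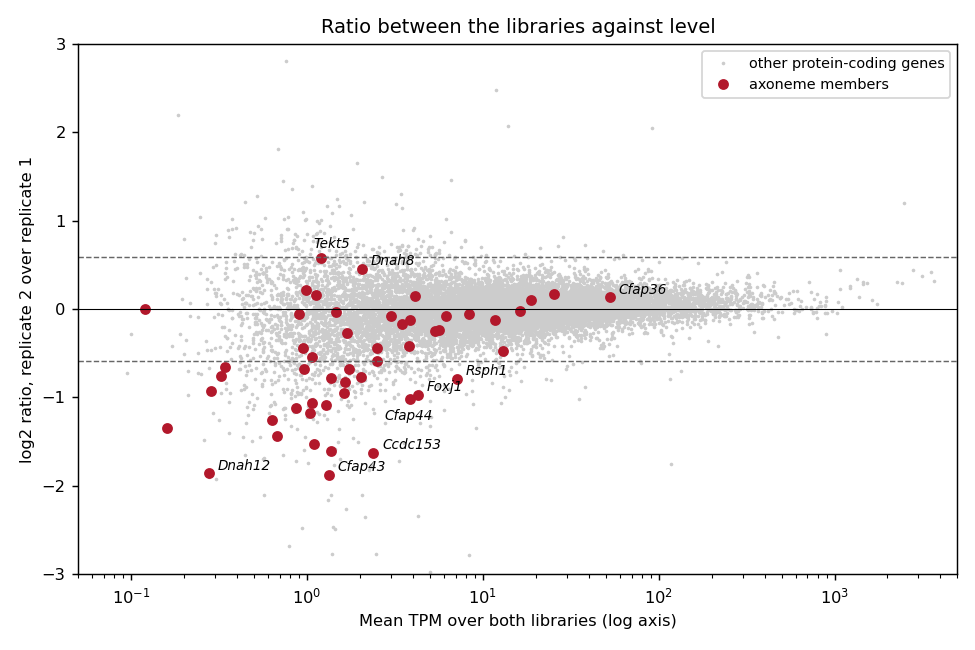
Each point is a protein-coding gene with at least 50 summed counts, placed by its mean TPM (log axis) and its log2 ratio of replicate 2 over replicate 1. Red points are the 51 members, dashed lines mark 1.5-fold, and 27 genes beyond 3 on the log2 scale are outside the axis. The 11 members of at least 5 TPM have a median of -0.08, and those of 1 to 5 TPM a median of -0.67.

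Among the regulators, Foxj1, the forkhead factor that drives the motile cilium programme (chromosome 11, 116330704 to 116335399, minus strand), had 2.75 TPM in replicate 2 and 5.80 TPM in replicate 1, from 158 and 335 counts. Its normalised count was 1.96-fold lower in replicate 2 (95% exact binomial interval of the fold 1.62 to 2.39, counting error only). Foxj1 has a single annotated transcript and shared no 31-base word with another gene. Mcidas, the geminin-family coregulator that starts the multiciliated cell fate, was near the floor with 0.170 TPM in replicate 2 and 0.130 TPM in replicate 1, from 9 and 7 counts. The counting interval of its ratio was 0.460 to 4.39, so a difference within those bounds was not detectable at this depth.

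Most other listed genes that set up multiciliated cells, among those with enough counts, did not pass 1.5-fold between the libraries. Of the 12 listed regulators outside the members, 10 had enough counts, 1 was at least 1.5-fold lower in replicate 2 and none was at least 1.5-fold higher, with a median log2 ratio of 0.10. The lower one was Gmnc, an upstream geminin-family regulator, with 0.560 TPM in replicate 2 and 1.2 TPM in replicate 1. The highest was Rfx3, a member of the RFX family, with 36.3 TPM in replicate 2 and 39.4 TPM in replicate 1. Tfdp1, an E2F partner with general cell cycle roles, followed with 29.9 TPM in replicate 2 and 28.1 TPM in replicate 1. The log2 ratios of the 10 genes lay below 0 for 5 and above 0 for 5. Rfx2, with 95 counts in replicate 2 and 141 in replicate 1, was 1.37-fold lower in replicate 2 (interval 1.05 to 1.80). Deup1 and Cdc20b had too few counts, 9 and 0 in replicate 2 and 14 and 3 in replicate 1.

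The 15 dynein heavy chains, the motor subunits of the arms, spanned 0.0200 to 6.15 TPM on average, and 5 were detected. Dnah9, an outer-arm heavy chain (chromosome 11, 65831282 to 66168551, minus strand), was the highest, with 5.99 TPM in replicate 2 and 6.31 TPM in replicate 1, from 1052 and 1199 counts. Its ratio was 0.947 (interval 0.871 to 1.03), so the 2 libraries could not be told apart by counting error. Dnah5, an outer-arm chain that is often mutated in human primary ciliary dyskinesia, also lay close in both, with 1.38 TPM in replicate 2 and 1.53 TPM in replicate 1. Dnah11, another outer-arm chain, had 0.680 TPM in replicate 2 and 1.23 TPM in replicate 1, a 1.60-fold difference (interval 1.28 to 2.02).

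The inner-arm heavy chains differed among themselves in their ratios. Dnah12 had 0.110 TPM in replicate 2 and 0.440 TPM in replicate 1, from 30 and 119 counts, and was 3.63-fold lower in replicate 2 (interval 2.44 to 5.68). Dnah6 had 0.350 TPM in replicate 2 and 0.990 TPM in replicate 1, from 96 and 282 counts, 2.71-fold lower in replicate 2. Dnah2 had 2.27 TPM in replicate 2 and 2.74 TPM in replicate 1, from 183 and 268 counts. Its ratio of 0.738 (interval 0.608 to 0.893) was also below 1 but did not pass 1.5-fold. Of the 14 heavy chains with enough counts, 6 were at least 1.5-fold lower in replicate 2, and these were Dnah3, Dnah6, Dnah7c, Dnah10, Dnah11 and Dnah12.

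Dnah8, an outer-arm chain known mainly from sperm, leaned the other way, with 2.55 TPM in replicate 2 and 1.55 TPM in replicate 1, from 113 and 89 counts, a ratio of 1.37 (interval 1.03 to 1.83). The leading transcript was a retained-intron form in both libraries, a different one in each, and protein-coding transcripts made up 3.15% of the gene's TPM in replicate 2 and 0% in replicate 1. Dnah7a, Dnah7b and Dnah7c are near copies on chromosome 1, and 54.2%, 40.0% and 61.6% of their 31-base words occurred in other genes. How reads were divided among them is uncertain.

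The 1 light chain among the members was Dynlrb2, a roadblock-type chain enriched in ciliated cells. It had 0.630 TPM in replicate 2 and 2.21 TPM in replicate 1, from 6 and 21 counts, 3.08-fold lower in replicate 2 with a wide interval of 1.27 to 9.82. Its paralog in cytoplasmic dynein, Dynlrb1, stood far higher, at 140 TPM in replicate 2 and 153 TPM in replicate 1. The intermediate chains listed as Dnaic1 and Dnaic2, not members by the rule, had 5.10 and 0.870 TPM in replicate 2 and 5.76 and 1.53 TPM in replicate 1. Neither passed 1.5-fold.

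Of the 4 dynein assembly factors, cytoplasmic proteins that build the arms before transport, Dnaaf5 alone was detected. It had 2.81 TPM in replicate 2 and 3.20 TPM in replicate 1. Dnaaf2 was nearly even as well, with a ratio of 1.16 (interval 0.825 to 1.62), but 39.3% of its 31-base words were shared, and 38.7% of its exonic bases overlapped genes annotated on the same strand. Dnaaf3 and Dnaaf1 were under 0.5 TPM in both libraries, from 8 and 4 counts in replicate 2 and 23 and 9 counts in replicate 1.

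The radial spoke genes were the best detected role, with 6 of 8 at 1 TPM or more in both libraries. Rsph9, a spoke head protein, had 11.2 TPM in replicate 2 and 12.3 TPM in replicate 1, from 201 and 236 counts. Rsph1, a spoke head protein and a usual marker of ependymal cells, had 5.19 TPM in replicate 2 and 9.02 TPM in replicate 1, and was 1.73-fold lower in replicate 2 (interval 1.37 to 2.19). The spoke head protein Rsph4a was lower by a similar amount, with 1.44 TPM in replicate 2 and 2.63 TPM in replicate 1, 1.71-fold (interval 1.36 to 2.16). Within the spoke head, then, Rsph9 was near even while Rsph1 and Rsph4a were more than 1.5-fold lower in replicate 2, though the difference between these ratios was not tested.

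Rsph3a and Rsph3b, copies of a spoke stalk gene on chromosome 17, were the highest radial spoke genes. Rsph3a had 16.1 TPM in replicate 2 and 16.2 TPM in replicate 1. Rsph3b had 10.5 TPM in replicate 2 and 15.5 TPM in replicate 1, 1.39-fold lower in replicate 2 (interval 1.21 to 1.59). They shared 59.4% and 68.5% of their words with other genes, mostly each other, so the split between them is uncertain. For Rsph3a the leading transcript in both libraries was a processed transcript of 688 bases, which held 57.7% of the gene's TPM in replicate 2 and 51.5% in replicate 1, while coding transcripts held 10.9% and 15.7%.

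In the nexin-dynein regulatory complex, which links neighbouring doublets, Drc1, a structural subunit at the base of the complex, had 3.97 TPM in replicate 2 and 4.22 TPM in replicate 1, from 214 and 209 counts. Drc7, another subunit, had 0.790 TPM in replicate 2 and 1.93 TPM in replicate 1, from 27 and 90 counts, and was 3.05-fold lower in replicate 2 (interval 1.99 to 4.94). Drc3 lay between them with 1.86 TPM in replicate 2 and 3.16 TPM in replicate 1, from 79 and 128 counts, with a ratio of 0.668, just short of the bound. Subunits of 1 complex thus differed in their ratios, from 1.11 for Drc1 to 0.328 for Drc7.

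Tektins form filaments inside the doublet microtubules. Tekt1, another usual ependymal marker, had 1.05 TPM in replicate 2 and 2.19 TPM in replicate 1, from 31 and 65 counts. Tekt4 had 0.650 TPM in replicate 2 and 1.44 TPM in replicate 1, from 19 and 47 counts. Tekt5, known from sperm flagella, had the largest ratio of any member with enough counts, 1.49 (interval 0.972 to 2.32), with 1.39 TPM in replicate 2 and 1.00 TPM in replicate 1. Its interval included 1. Tekt3 was near the floor with 1 and 2 counts in replicate 2 and replicate 1.

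Ccdc153, a coiled-coil protein used as an ependymal marker, had the smallest ratio among the detected members, with 1.08 TPM in replicate 2 and 3.66 TPM in replicate 1, from 18 and 61 counts, 3.08-fold lower in replicate 2 (interval 1.83 to 5.64). Tmem212, a membrane protein with the same use, had 0.430 TPM in replicate 2 and 2.69 TPM in replicate 1, from 6 and 38 counts, 5.50-fold lower in replicate 2 (interval 2.46 to 17.0). Cfap126, or Flattop, a basal body protein, had 0.730 TPM in replicate 2 and 1.71 TPM in replicate 1. Over the 7 members that serve as ependymal markers (Foxj1, Tmem212, Ccdc153, Dynlrb2, Rsph1, Tekt1 and Cfap126) the summed level was 11.9 TPM in replicate 2 and 27.3 TPM in replicate 1. The 4 with enough counts were all at least 1.5-fold lower in replicate 2, beside 10.2% of coding genes of 50 to 500 summed counts. Nothing is read from this, since lower ependymal genes in replicate 2 were the reason the members were chosen.

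The 31 Cfap genes, named only for an association with cilia and flagella, had both the highest and the lowest levels. Cfap36, which binds the small GTPase Arl3 (chromosome 11, 29221532 to 29247409, minus strand), was the highest member, with 53.7 TPM in replicate 2 and 51.7 TPM in replicate 1, from 1782 and 1754 counts. Cfap20, a protein of the inner junction between the tubules of a doublet, had 25.4 TPM in replicate 2 and in replicate 1. Cfap298 had 18.04 TPM in replicate 2 and 19.3 TPM in replicate 1, though 53.6% of its exonic bases overlap genes on the opposite strand, and the strand setting of the counting is unstated. The ratios of normalised counts for these 3 genes were 1.10, 1.12 and 1.08.

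Cfap97 had 7.85 TPM in replicate 2 and 8.85 TPM in replicate 1. Cfap54, a central apparatus protein, had 4.65 TPM in replicate 2 and 6.56 TPM in replicate 1. Cfap69 had 4.96 TPM in replicate 2 and 5.77 TPM in replicate 1. None of these 3 genes passed 1.5-fold.

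Cfap100 had 3.44 TPM in replicate 2 and 4.25 TPM in replicate 1. Cfap74, a central apparatus protein, had 3.42 TPM in replicate 2 and 4.16 TPM in replicate 1. Cfap300, which takes part in dynein arm assembly, had 2.85 TPM in replicate 2 and 4.07 TPM in replicate 1. The ratios of normalised counts for these 3 lay below 1 by less than 1.5-fold. The counting interval lay below 1 for Cfap74 (0.617 to 0.904) but included 1 for Cfap100 (0.689 to 1.21) and Cfap300 (0.660 to 1.19).

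Cfap44 and Cfap43, which in algae and ciliates form a complex that tethers an inner dynein arm, were both lower in replicate 2. Cfap44 had 3.01 TPM in replicate 2 and 4.68 TPM in replicate 1, but 159 and 347 counts, 2.02-fold lower in replicate 2 by counts (interval 1.67 to 2.45). TPM divides the counts by an estimated effective length, which was 2325 bases in replicate 2 and 3243 bases in replicate 1, with a different leading transcript in each. Cfap43 had 0.560 TPM in replicate 2 and 2.09 TPM in replicate 1, from 33 and 132 counts, the smallest ratio of any member with enough counts, 0.273 (interval 0.178 to 0.398). Cfap65, known from sperm flagella, had the next smallest ratio among the Cfap genes with enough counts, with 0.560 TPM in replicate 2 and 1.64 TPM in replicate 1, from 57 and 178 counts, 2.88-fold lower in replicate 2 (interval 2.14 to 3.97).

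Of the 20 Cfap genes with enough counts, 10 were at least 1.5-fold lower in replicate 2. Besides Cfap43, Cfap44 and Cfap65 these were Cfap45, Cfap46, Cfap52, Cfap57, Cfap61, Cfap70 and Cfap206. Cfap45 and Cfap52, proteins bound inside the doublet tubules, had 1.36 and 0.760 TPM in replicate 2 and 1.92 and 1.81 TPM in replicate 1. Counting error covered 1 for 2 of the 24 lower members, since the interval of the ratio lay wholly below 1 for 22. The same counts called these members lower and gave the intervals, so the 22 are no separate support. The intervals also leave out variation between the pools of mice.

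Transcript estimates were available for the 30 detected members. Of these, 27 have more than 1 annotated transcript. The leading transcript was the same in both libraries for 21 of the 30 and also in both quantifications for 18. Both counts include Dnah5, Foxj1 and Rsph4a, which have a single annotated transcript and could not differ. By the first quantification it was protein-coding in both libraries for 26, in 1 library for Dnah7a, and in neither for Cfap44, Dnah8 and Rsph3a. By the second, a retained-intron form led for Ccdc153 in both libraries and for Cfap45 in replicate 2. A processed transcript led for Dnah2 in both libraries. Some coding leaders of the first quantification were short. In replicate 2 that of Dnah2 had 696 bases, while its longest coding transcript had 13704. Those of Cfap100 and Cfap45 had 289 and 426 bases in replicate 2, against 2072 and 1908. The share over all protein-coding genes is not given here. Cfap36 gave 90.3% of its TPM in replicate 2 and 91.9% in replicate 1 to 1 coding transcript of 1664 bases. For Dnah9, Dnah9-201, the longest coding transcript at 13798 bases, led with 45.8% in replicate 2 and 50.9% in replicate 1. In Cfap44 the coding share was 26.3% in replicate 2 and 42.4% in replicate 1.

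A second deposited quantification, made from the reads without the alignments used for the first, gave similar ratios. Over the 51 members Pearson's r between the log2 ratios of the 2 quantifications was 0.979 and Spearman's rho was 0.981, as a description of the same reads. The levels were higher in the second. Of 49 members with a mean of at least 1 TPM in either, 5 were more than 2-fold higher in both libraries by the second quantification and 0 were more than 2-fold lower, while 10.5% of coding genes were higher and 0.39% were lower. These 5 of 49 are near that background.

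The 5 members were Ccdc153, Cfap45, Cfap74, Dnah8 and Dnah17. Dnah17, an outer-arm chain of sperm, differed most between them, with 2.58 TPM in replicate 2 and 2.45 TPM in replicate 1 by the second quantification, and 0.0200 TPM in each by the first. The 2 methods assigned it 53.5 and 52.8 counts (second) and 7 and 8 counts (first) in replicate 2 and replicate 1. Cfap74 had 13.0 TPM in replicate 2 and 15.4 TPM in replicate 1 by the second method, and Ccdc153 7.95 and 15.1 TPM. Ccdc153 stayed lower in replicate 2 by both.

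**Figure D4:**
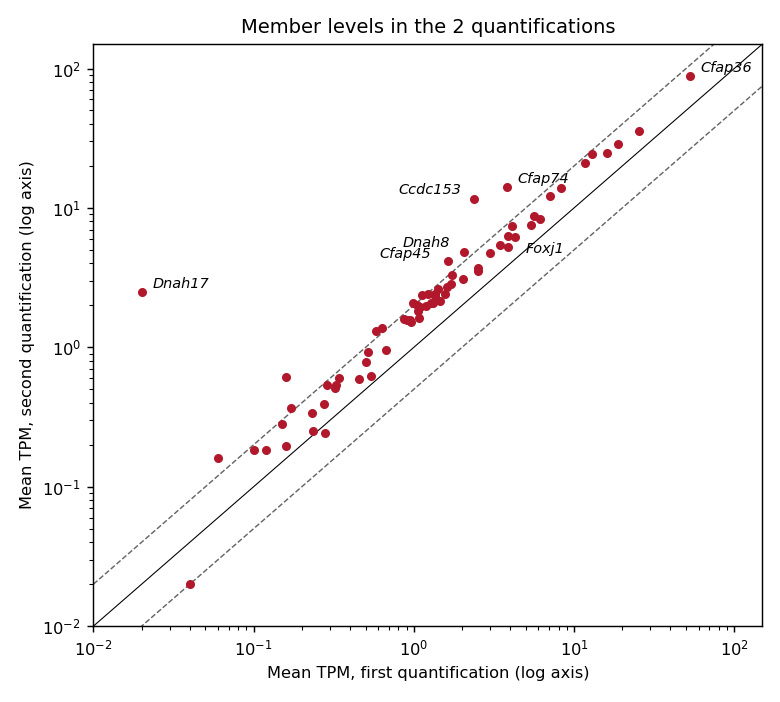
Each point is a member, with its mean TPM over both libraries by the first quantification (horizontal, log axis) and by the second (vertical, log axis). The solid line marks equality and the dashed lines 2-fold. Most members lie above equality but inside 2-fold, and Dnah17 is the farthest from the line.

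Genes of the same structures that the symbols did not catch were compared next. Of 34 other axoneme genes, 16 were detected and 26 had enough counts, of which 10 were at least 1.5-fold lower in replicate 2 and none higher. Their median log2 ratio was -0.43. Dnal1, an outer-arm light chain, was the highest with 39.8 TPM in replicate 2 and 41.0 TPM in replicate 1. Gas8, a nexin-dynein regulatory subunit, had 11.6 TPM in replicate 2 and 13.8 TPM in replicate 1. Spag16, a central apparatus protein, had 0.300 TPM in replicate 2 and 0.840 TPM in replicate 1, and Hydin, another, 0.170 and 0.550 TPM. 

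Genes that primary cilia also use were nearly even between the libraries. All 38 intraflagellar transport and BBSome genes were detected, none passed 1.5-fold in either direction, and their median log2 ratio was -0.09. Their log2 ratios lay below 0 for 28 and above 0 for 10, and the smallest, -0.584, was just short of the bound. The highest were the kinesin-associated protein Kifap3, with 77.4 TPM in replicate 2 and 84.5 TPM in replicate 1, and the kinesin subunit Kif3a, with 51.6 TPM in replicate 2 and 64.7 TPM in replicate 1. All 10 cytoplasmic dynein genes were detected, with a median log2 ratio of 0.00 and none past 1.5-fold. Dynll1, a light chain shared with axonemal dyneins, was the highest of them with 304 TPM in replicate 2 and 391 TPM in replicate 1.

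Markers of other cells of the ventricle and brain surface were mostly lower in replicate 2 too. The ependymal markers outside the axoneme had a sum of 21.2 TPM in replicate 2 and 41.7 TPM in replicate 1, and 4 of the 6 with enough counts, of 9 listed, were at least 1.5-fold lower in replicate 2. All 9 had counts. Nothing is read from this list either, since lower ependymal genes in replicate 2 were the reason the members were chosen. Rarres2, a secreted chemoattractant precursor, and Tm4sf1, a membrane protein, were the highest, with 7.20 and 6.02 TPM in replicate 2 and 10.1 and 7.81 TPM in replicate 1. Calml4, a calmodulin-like protein, had the smallest ratio in this list, with 0.530 TPM in replicate 2 and 7.32 TPM in replicate 1.

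The choroid plexus markers, of the epithelium that secretes cerebrospinal fluid, differed more than the members. All 8 were at least 1.5-fold lower in replicate 2 and none was at 0. Their median log2 ratio was -4.88 and their summed level was 9.86 TPM in replicate 2 and 1437 TPM in replicate 1. Their highest gene was the thyroid hormone carrier Ttr, with 5.62 TPM in replicate 2 and 1375 TPM in replicate 1. The next was Sostdc1, a secreted signalling antagonist, with 1.99 TPM in replicate 2 and 14.7 TPM in replicate 1. Sums of the 7 meningeal markers were 122 TPM in replicate 2 and 194 TPM in replicate 1, with 3 at least 1.5-fold lower in replicate 2, a median log2 ratio of -0.52 and none at 0. Igf2, a growth factor, had 59.9 TPM in replicate 2 and 98.6 TPM in replicate 1, and the collagen gene Col1a1 16.6 and 25.8 TPM.

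Of the sperm markers, genes of a cell type that uses the same axonemal parts, 0 of 8 were detected, 5 had no count in either library, and the sum was 0.320 TPM in replicate 2 and 0.110 TPM in replicate 1. The protamine Prm1 had 1 count in replicate 2 and 0 in replicate 1, and the kinase Tssk6 had 3 counts in each. The 6 astrocyte markers had a median log2 ratio of 0.29 and a sum of 2127 TPM in replicate 2 and 1820 TPM in replicate 1, led by the glutamate transporter Slc1a2 (1181 and 978 TPM) and the glycolytic enzyme Aldoc (357 and 288 TPM). The 4 neuron markers had a median of 0.02 and a sum of 1730 TPM in replicate 2 and 1846 TPM in replicate 1, led by the vesicular glutamate transporter Slc17a7 (672 and 710 TPM) and the synaptic protein Snap25 (596 and 659 TPM). All astrocyte and neuron markers were thus detected in this tissue. The part of ependymal, choroid plexus or meningeal tissue in the members' ratios was not tested, and in bulk RNA fewer cells of a type and less RNA per cell cannot be told apart.

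**Figure D5:**
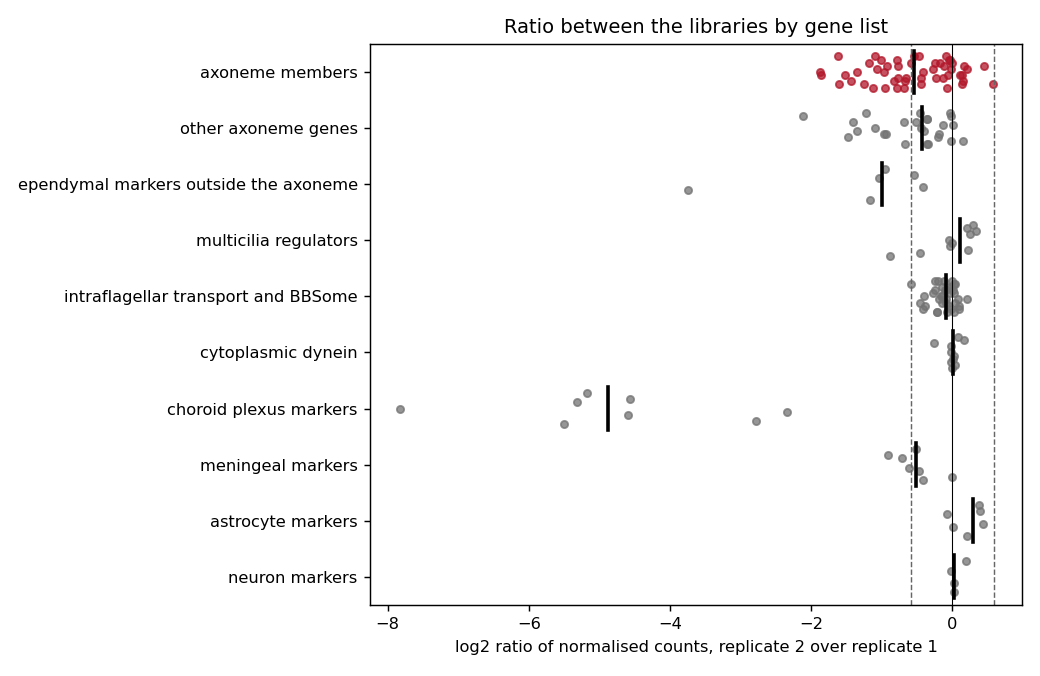
Each point is 1 gene with at least 50 summed counts, placed by its log2 ratio of replicate 2 over replicate 1 (horizontal) in its list (vertical); black bars are medians and dashed lines mark 1.5-fold. The members' median is -0.54, that of choroid plexus markers is -4.88 and that of intraflagellar transport and BBSome genes is -0.09. Sperm markers have too few counts to be drawn.

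Both libraries had similar depth, with 32879872 counts in replicate 2 and 33465393 in replicate 1, and the members together took 10086 counts in replicate 2 and 13061 in replicate 1. Their pooled normalised ratio over the 51 genes had a counting interval of 0.819 to 0.864. Pooling weights genes by their counts, so abundant near-even members such as Cfap36 (1782 and 1754 counts) weigh most. The interval lies above the members' median ratio of 0.686 and does not describe the typical member. Counting error was small for the pooled counts and large for single members of few counts, such as Tmem212 and Dynlrb2. Nothing in the labels says that the mice or pools of the libraries were of different kinds, and the ratios describe these libraries.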

How the data were processed

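Total RNA of both libraries was quantified by the authors against mm10 with GENCODE M21, per the file headers and notes. The first deposited quantification gives expected counts (estimated reads per gene), TPM and each transcript's percent of its gene's TPM, in RSEM layout. The second is a deposited table of estimated counts and TPM in kallisto layout. The aligner, versions and strand setting were not given in the sources used here. mm10 is C57BL/6J sequence, and alleles were not analysed here. Library totals were 32879872 (replicate 2) and 33465393 (replicate 1) counts. Of these, 139031 and 143817 fell on spike-ins, which stayed out of library sizes.

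Symbols came from the second table, joined by gene identifier. Ratios used unrounded expected counts, TMM factors from edgeR 4.0.16 (R 4.3.3) and a prior count of 0.5 on genes with at least 50 summed counts, with no model fitted. Intervals are 95% exact Clopper-Pearson intervals on the counts, and intervals and the floor of 3 counts cover counting error only. Named genes were Foxj1 and Mcidas, members of at least 3 TPM, the highest of each role, those nearest the detection threshold, the 5 smallest and 5 largest ratios, those over 2-fold apart between quantifications, and the 2 highest genes of each list. Other genes with values were chosen after their values were seen. The members, lists and thresholds were chosen with earlier results of these data known. Sequences are RefSeq promoter windows (GRCm38.p6, the assembly also called mm10), and proteins were not used here. Alternatives were another normalization (DESeq2 1.42.0 size factors, total counts, spike-ins), other filters, priors, folds and thresholds, the second quantification, TPM ratios and each library alone. Python 3.11.15, numpy 2.4.6, pandas 2.3.3, scipy 1.17.1 and matplotlib 3.10.9 were used.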

Additional observations from a re-analysis of the deposited data

How the results depend on the processing

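The 31 named members with ratios gave 217 alternative values, of which none changed sign past the bound and 12 moved by more than the counting interval, all 12 on the TPM scales. The number detected, 30, became 46 at 0.5 TPM in both libraries and 48 with TPM rescaled over nuclear protein-coding genes, and was 31 and 44 in replicate 2 and replicate 1 alone. The median member TPM, 1.195, was 2.09 in the second quantification and 2.73 after that rescaling. The median log2 ratio, -0.54, was -0.63 with total counts, -0.61 with spike-in totals, -0.67 at 10 or at 1 summed count, -0.44 in the second quantification, -0.50 and -0.27 as log2(TPM + 0.1) and log2(TPM + 1), -0.58 without members that share over 50% of their words and -0.47 with Dnaic1 and Dnaic2. The last 2 alternatives were chosen after seeing the data. The count of members lower in replicate 2, 24 of 51, was 37 of 70 at 1 summed count, 14 of 31 without the Cfap genes, and, of the same 51, 11 on log2(TPM + 1) and 13 at 2-fold. The count higher in replicate 2, 0, was 1 in the second quantification (Tekt5) and 1 on log2(TPM + 0.1) (Dnah8). Members over 2-fold apart between quantifications, 5, were 3 on log2(TPM + 1) and 9 to 13 with 1 library. The share of promoters with the core, 40.0%, was 72.3% for GTTNCC. Where no construction shows it, the cause was not tested. No paired analysis was possible because there is 1 group. Members under 50 counts are limited by counting error.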
